A study of Homo sapiens with 4 samples.

Results

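The ligands and receptors of the tumour necrosis factor (TNF) superfamilies were followed in the human diffuse large B-cell lymphoma line SU-DHL-2. Members were chosen by symbol: every gene named TNFSF or TNFRSF with a number and at most 1 letter, and CD27, CD40, CD40LG, CD70, FAS, FASLG, LTA, LTB, LTBR, TNF, EDAR, EDA2R and NGFR. This rule found 45 of the 61267 genes in the deposited count table. By role they were 17 ligands, 8 death receptors, 4 decoy receptors, 8 co-stimulatory receptors, 3 receptors for BAFF and APRIL and 5 other receptors that bind TRAF adaptors.

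Cells labelled wild type received vehicle (2 RNA-seq libraries) or 10 µM Spautin-1 for 36 h (2 libraries), and no time is labelled for vehicle. Spautin-1 is known as a blocker of USP10 and USP13, enzymes that remove ubiquitin from proteins. The comparison asks how mRNA levels differ after exposure to the compound. Library totals ran from 34115420 to 38362526 counts. Whether libraries of a group came from separate cultures is not stated, so p-values here describe a spread between libraries that may be technical. Marker levels were those of B cells: all 8 listed B-cell markers were above 1 CPM (counts per 1000000 counts of a library) in vehicle. The summed lists for T cells, NK cells, monocytes and macrophages, and stromal and endothelial cells each stayed at or under 1.55 CPM in every library. TRAC, KLRD1 and GNLY of those lists were at 0 in all 4 libraries. These markers do not tell which B-cell line was used.

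TNF superfamily ligands are mostly membrane-bound proteins that act as trimers, and some are shed by proteases. Several receptors with a death domain, FAS among them, recruit FADD or TRADD and can activate caspase-8. Many of the other receptors recruit TRAF proteins and feed NF-kB and MAP kinase signalling. Decoy receptors bind ligand without passing on a death signal. B cells depend on several members for survival and for help from T cells, among them CD40, CD27, and the receptors for the cytokines BAFF and APRIL.

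Of the 45 genes, 25 had enough reads to be tested and 20 did not. Levels of different genes are compared as TPM (transcripts per 1000000), computed from the counts and the deposited exonic length of each gene. In vehicle the highest was TNFRSF13B (TACI, a receptor for BAFF and APRIL; chromosome 17, 16929816 to 16972118, GRCh38) at 229 ± 29.2 TPM (mean ± SD, n = 2). CD40, the receptor for the T-cell signal CD40LG, followed at 33.9 ± 1.01 TPM and the ligand CD70 at 31.8 ± 4.96 TPM, a gap smaller than the spread of CD70. The TRAIL receptor TNFRSF10A stood at 26.6 ± 2.82 TPM and TNFSF13, which encodes APRIL, at 11.5 ± 2.12 TPM. These 5 were the tested members above 10 TPM in vehicle, and 6 tested members were below 1 TPM. With Spautin-1, CD70 was at 90.7 ± 4.03 TPM and held the place after TNFRSF13B, which was at 235 ± 26.1 TPM. The length used for FAS, 29313 exonic bases, is far above its longest GENCODE 29 transcript of 2563 bases, so its TPM of 1.41 ± 0.0138 in vehicle may be too low against other genes.

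**Figure D1:**
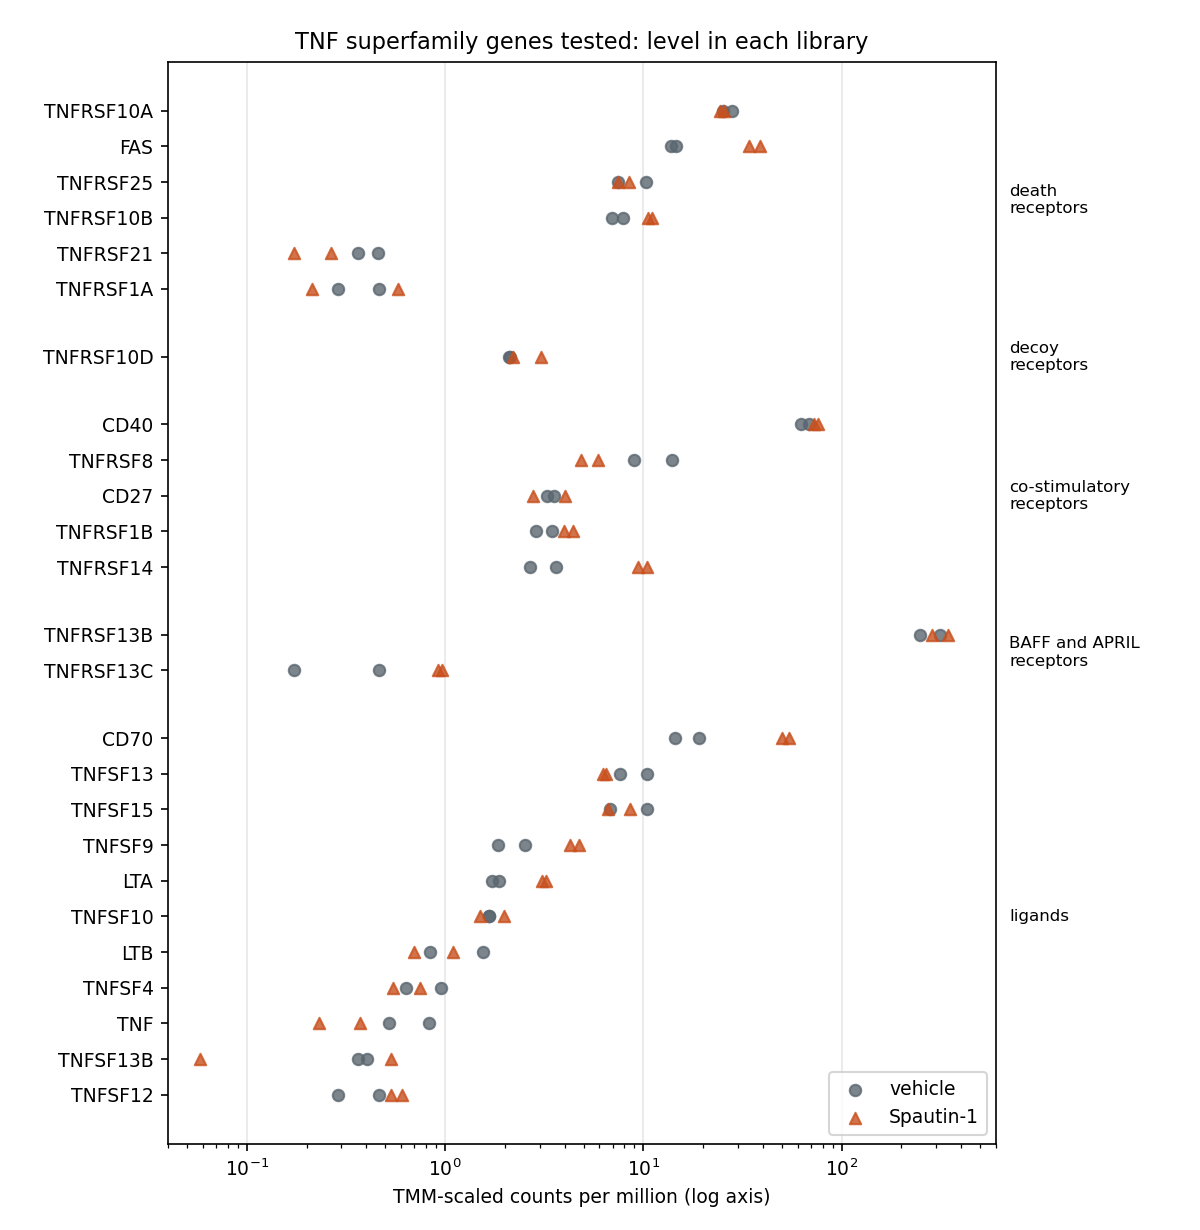
Level of the 25 tested TNF superfamily genes in each library, as TMM-scaled CPM on a log axis, by role (circles, 2 vehicle libraries; triangles, 2 Spautin-1 libraries). CD70, FAS, TNFRSF14 and TNFSF9 show triangles well to the right of the circles, TNFRSF8 to the left, and TNFRSF13B is the gene with the highest counts in all 4 libraries.

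Spautin-1 was followed by higher mRNA of 4 members and lower mRNA of 1 (adjusted p under 0.05 over 18368 genes in edgeR's quasi-likelihood test). The ligands CD70 and TNFSF9, the death receptor FAS and the co-stimulatory receptor TNFRSF14 rose by 2.05- to 3.14-fold, and TNFRSF8, the lymphoma marker CD30, fell 2.12-fold. The other 20 tested members did not pass. Of the tested members 5 of 25 were called, against 22.0% of all genes tested, so members were called about as often as genes in general. By direction, 4 of 25 members were higher against 11.5% of all genes, and 1 of 25 was lower against 10.5%. All 4 members that rose did so by at least 2-fold, and 4.16% of all genes both passed the test and rose by that much. The median log2 fold change was 0.06 over the tested members and -0.01 over all genes. In 11 members both Spautin-1 libraries lay above both vehicle libraries and in 4 both lay below, while 30.8% and 30.6% of all genes were separated in these directions. For a rise or a fall in bulk RNA, a changed share of expressing cells and changed RNA per cell cannot be told apart.

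B-cell markers moved in the same comparison. Their summed level was 751 and 839 CPM in the vehicle libraries and 1124 and 1151 CPM with Spautin-1, and 4 of the 8 passed the test, all higher: MS4A1 (CD20), CD22, CD74 and POU2AF1. The part of this shift in the values below was not tested.

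**Figure D2:**
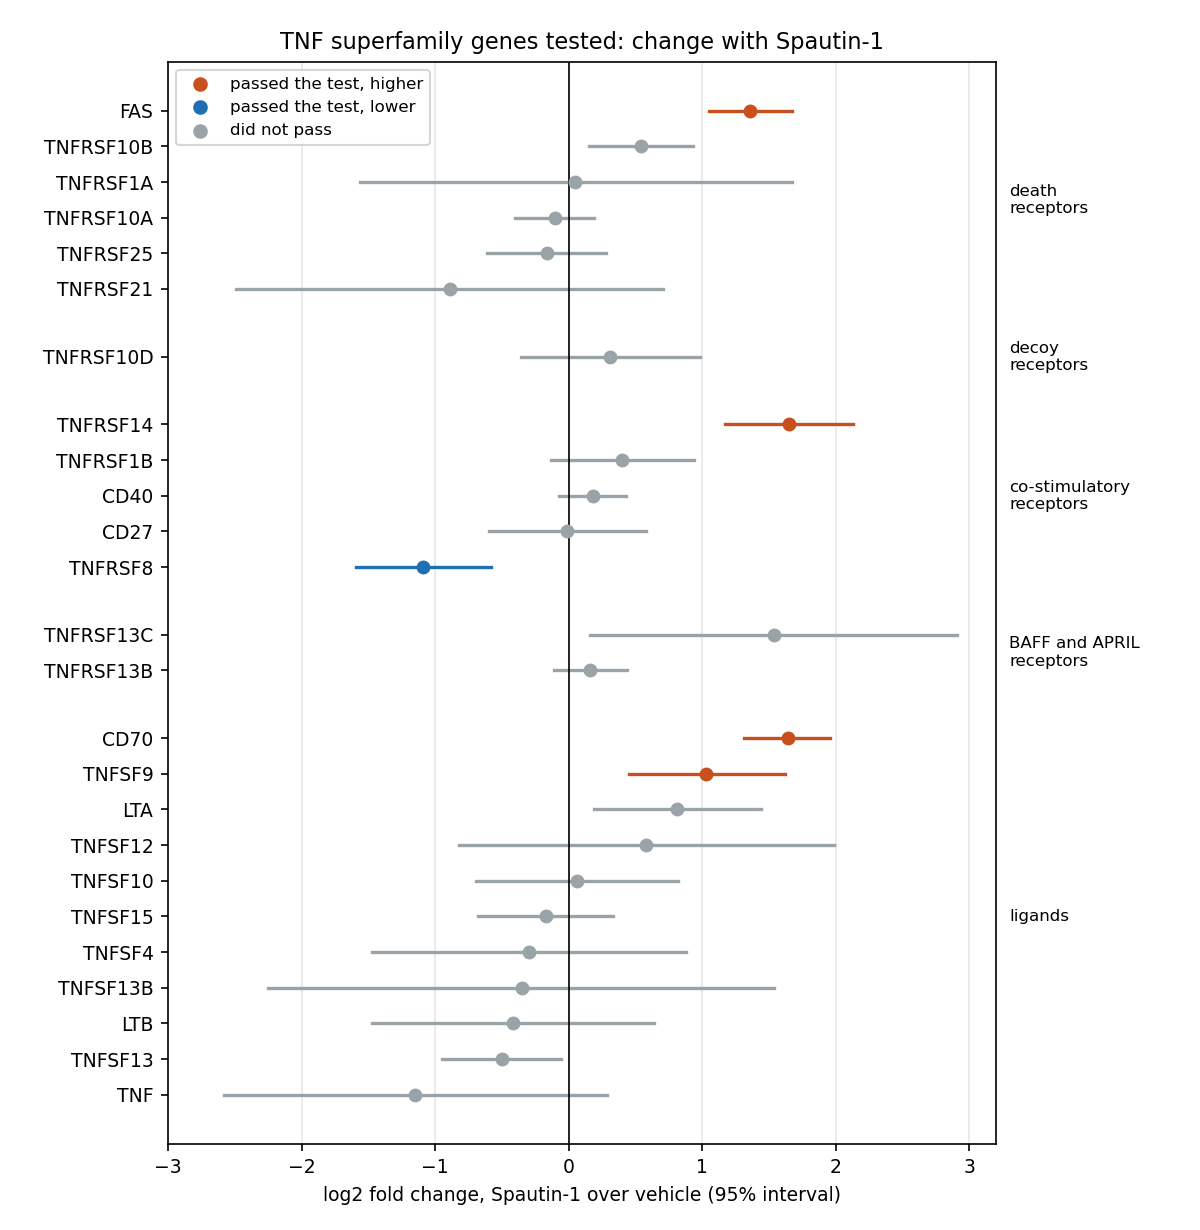
log2 fold change of Spautin-1 over vehicle for the 25 tested genes with its 95% interval from the edgeR fit, grouped by role (orange, higher; blue, lower; grey, did not pass). The 5 genes that passed lie in 3 of the role groups, and genes with few reads, such as TNFSF13B and TNFRSF1A, have intervals spanning more than 2 log2 units.

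Promoter sequences are shown for the called genes, since these are the members whose levels moved. RefSeq (GRCh38.p14) gave windows from 250 bases before to 50 after an annotated start for 29 of the 45 members, with none for CD70. Windows are 5′ to 3′ on the gene's strand, with matches in capitals to the NF-kB consensus (10 bases, searched by name on both strands) or to the AP-1 letters TGANTCA. FAS has 3 listed starts, and the windows with a match are given as FAS start a (chr10:88990548-88990847, plus strand) and FAS start b (chr10:88991181-88991480, plus strand). The others are TNFRSF14 (chr1:2556121-2556420, plus strand), TNFRSF8 (chr1:12063053-12063352, plus strand) and TNFSF9 (chr19:6530776-6531075, plus strand).
FAS start a: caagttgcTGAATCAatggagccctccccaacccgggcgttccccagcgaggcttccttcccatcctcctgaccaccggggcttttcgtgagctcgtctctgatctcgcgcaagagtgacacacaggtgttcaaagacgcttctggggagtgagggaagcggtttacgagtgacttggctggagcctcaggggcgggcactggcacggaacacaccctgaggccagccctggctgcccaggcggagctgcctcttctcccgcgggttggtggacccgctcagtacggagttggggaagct
FAS start b: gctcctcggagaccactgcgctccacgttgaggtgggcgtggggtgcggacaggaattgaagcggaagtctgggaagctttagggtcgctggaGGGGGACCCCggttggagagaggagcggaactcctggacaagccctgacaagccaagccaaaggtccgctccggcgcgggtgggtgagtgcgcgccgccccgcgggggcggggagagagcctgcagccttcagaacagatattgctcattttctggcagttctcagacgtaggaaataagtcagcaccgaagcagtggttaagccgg
TNFRSF14: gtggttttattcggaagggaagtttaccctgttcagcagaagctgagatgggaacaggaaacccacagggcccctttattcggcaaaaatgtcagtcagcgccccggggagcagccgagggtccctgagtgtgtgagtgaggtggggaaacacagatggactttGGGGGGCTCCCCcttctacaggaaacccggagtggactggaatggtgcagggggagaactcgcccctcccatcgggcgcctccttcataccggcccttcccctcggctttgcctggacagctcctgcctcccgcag
TNFRSF8: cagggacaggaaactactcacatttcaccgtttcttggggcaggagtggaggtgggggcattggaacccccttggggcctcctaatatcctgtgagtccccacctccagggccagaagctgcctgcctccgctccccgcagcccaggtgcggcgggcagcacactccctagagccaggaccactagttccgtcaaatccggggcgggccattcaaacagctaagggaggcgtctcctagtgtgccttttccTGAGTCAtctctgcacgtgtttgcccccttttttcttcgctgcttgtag
TNFSF9: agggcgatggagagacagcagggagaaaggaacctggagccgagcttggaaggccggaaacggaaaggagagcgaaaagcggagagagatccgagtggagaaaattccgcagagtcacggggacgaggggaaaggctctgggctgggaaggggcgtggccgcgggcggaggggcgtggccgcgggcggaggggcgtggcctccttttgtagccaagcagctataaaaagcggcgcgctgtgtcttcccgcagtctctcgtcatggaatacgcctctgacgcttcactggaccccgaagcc

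With the annotated start at 0, the NF-kB match in FAS start b began at position -157 and the AP-1 match in FAS start a at -242. TNFRSF14 held 3 overlapping NF-kB matches in a run that began at -86. In TNFRSF8, the gene that fell, the AP-1 match began at position 1. TNFSF9 held neither motif in this window. Matches were also present in members that did not pass. Of 6 tested members with an NF-kB match, FAS and TNFRSF14 were called, and LTA, LTB, TNFRSF25 and TNFSF13 were not. Of 4 tested members with an AP-1 match, FAS and TNFRSF8 were called, and CD27 and TNFSF15 were not. Over the members with a window, 10 of 29 had an NF-kB match and 7 of 29 an AP-1 match, beside 13.3% and 9.37% of the 27305 genes in the same table. The cyclic AMP response element TGACGTCA was in no member window and in 2.25% of all genes. A match describes these letters only, and any gene with several listed starts, member or not, had more sequence searched. Counted by window, 12 of 39 member windows had an NF-kB match and 9 of 39 an AP-1 match. Of all 35116 windows, 11.3% and 7.71% did. Windows of a gene can overlap, and the difference was not tested.

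Among the ligands, 2 of 11 tested genes rose and none fell. CD70 (chromosome 19, 6583183 to 6604103, GRCh38), the ligand of CD27, was at 14.5 and 19 CPM in the vehicle libraries and at 54.4 and 49.8 CPM with Spautin-1. The lowest treated library was far above the highest vehicle library. The counts behind them were 505, 733, 2040 and 1726. From means of 16.8 ± 3.13 and 52.1 ± 3.22 CPM (SD, n = 2 each), CD70 rose 3.11-fold (log2 fold change 1.64 ± 0.15 SE, edgeR adjusted p = 2.35e-05). TNFSF9, which encodes the 4-1BB ligand (chromosome 19, 6531026 to 6535924), was at 1.84 and 2.54 CPM in vehicle and at 4.72 and 4.27 CPM with Spautin-1. These values rest on 64, 98, 177 and 148 counts, with means of 2.19 ± 0.49 and 4.49 ± 0.315 CPM. TNFSF9 rose 2.05-fold (log2 fold change 1.03 ± 0.27, edgeR adjusted p = 0.0171), a call lost without Spautin-1 replicate 1 (0.95, edgeR adjusted p = 0.0718). The groups did not overlap for either gene, and they lie 47258 bases apart.

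The next ligand by p-value was LTA, the soluble lymphotoxin alpha. It was at 1.73 and 1.86 CPM in vehicle and 3.09 and 3.23 CPM with Spautin-1, with no overlap. Its log2 fold change of 0.81 ± 0.29 missed the threshold (edgeR adjusted p = 0.0616), with a 95% interval of 1.14- to 2.71-fold. Its neighbour TNF, which starts 1240 bases downstream of LTA, stood at 0.518 and 0.828 CPM in vehicle against 0.373 and 0.231 CPM with Spautin-1. These TNF values rest on 18, 32, 14 and 8 counts, and the log2 fold change was -1.15 with an interval from -2.58 to 0.29 (edgeR adjusted p = 0.245). LTB, the membrane partner of lymphotoxin alpha, overlapped between groups at 0.835 and 1.55 CPM in vehicle and 1.09 and 0.693 CPM with Spautin-1. None of these 3 adjacent genes passed the test.

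APRIL mRNA, from TNFSF13, was at 7.66 and 10.4 CPM in vehicle and 6.26 and 6.49 CPM with Spautin-1. Both treated libraries were below both vehicle libraries, but the log2 fold change of -0.50 ± 0.21 did not pass (edgeR adjusted p = 0.102). Without vehicle replicate 1 it was called lower at -0.71 (edgeR adjusted p = 0.00482), and without vehicle replicate 2 it was -0.26 (0.444). Leaving out Spautin-1 replicate 1 or 2 gave -0.49 and -0.52 (edgeR adjusted p = 0.307 and 0.293). The read-through gene TNFSF12-TNFSF13 shares 55.5% of the TNFSF13 exonic bases on the same strand, and reads may be divided between them. BAFF mRNA, from TNFSF13B, was low, with 14 and 14 counts in vehicle and 20 and 2 with Spautin-1, so the treated libraries lay on either side of the vehicle ones. TRAIL mRNA, from TNFSF10, overlapped between groups, at 1.67 and 1.66 CPM in vehicle and 1.97 and 1.5 CPM with Spautin-1. Its interval allowed anything from -0.69 to 0.82 on the log2 scale.

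TNFSF15, the ligand of the death receptor TNFRSF25, was at 10.4 and 6.75 CPM in vehicle and 8.53 and 6.64 CPM with Spautin-1, with overlap. TNFSF4 (OX40 ligand) and TNFSF12 (TWEAK) were below 1 CPM in every library. Their log2 fold changes were -0.30 and 0.58, and each interval spanned 0. TNFSF12 stood higher in both treated libraries, at 20 and 21 counts against 10 and 18.

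In the death receptors, 1 of 6 tested genes rose and none fell. FAS (CD95; chromosome 10, 88953813 to 89029605), the receptor through which FASLG triggers apoptosis, was at 13.8 and 14.6 CPM in vehicle. With Spautin-1 it was at 38.9 and 34 CPM, above both vehicle libraries. The counts were 479, 565, 1460 and 1177, and the means 14.2 ± 0.588 and 36.4 ± 3.5 CPM. The rise was 2.56-fold (log2 fold change 1.36 ± 0.14, edgeR adjusted p = 5.95e-05). It is a rise over all 29313 deposited exonic bases, against 2563 in the longest GENCODE 29 transcript of FAS. Which of these bases the reads came from cannot be told from counts per gene. Parts of the FAS exons are shared with STAMBPL1 on the same strand (0.6%) and with ACTA2 and ENSG00000286116 on the opposite strand (1.3% and 6.5%), and a strand setting for the counting was not given in the sources used here.

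Genes for the TRAIL receptors lie together on chromosome 8, and those tested, TNFRSF10A, TNFRSF10B and TNFRSF10D, did not pass. TNFRSF10B (DR5) was at 7.92 and 6.91 CPM in vehicle and 11.0 and 10.5 CPM with Spautin-1. The groups were apart, and its log2 fold change of 0.54 ± 0.18 stood next to the threshold (edgeR adjusted p = 0.0504). It was called without vehicle replicate 1 (0.64, edgeR adjusted p = 0.0105) and missed the threshold without vehicle replicate 2 (0.44, 0.0951). Leaving out the first or the second Spautin-1 library gave 0.49 and 0.58 (edgeR adjusted p = 0.274 and 0.189). TNFRSF10A (DR4), the more abundant of the pair per length, was at 28.1 and 25.3 CPM in vehicle and 24.3 and 25.4 CPM with Spautin-1. Its interval of -0.40 to 0.19 on the log2 scale leaves out a change of the size seen for FAS.

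TNFRSF25 (DR3), which promotes both death and NF-kB signalling, was at 7.43 and 10.3 CPM in vehicle and 7.41 and 8.43 CPM with Spautin-1. TNFRSF1A, the main TNF receptor for death signalling, had 10 and 18 counts in vehicle and 8 and 20 with Spautin-1, and nothing can be said of it beyond an interval of -1.56 to 1.67. TNFRSF21 (DR6) had 16 and 14 counts against 10 and 6, below in both treated libraries without passing (edgeR adjusted p = 0.432). NGFR stayed at 6 to 8 counts and EDAR had at most 3, so neither was tested. The median log2 fold change of the 6 tested death receptors was -0.02.

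Of the decoy receptors, 1 of 4 was tested. TNFRSF10D, which binds TRAIL with a truncated death domain, was at 2.13 and 2.10 CPM in vehicle and 2.19 and 3.06 CPM with Spautin-1 (log2 fold change 0.31 ± 0.31, edgeR adjusted p = 0.519). TNFRSF10C had 4 to 6 counts in each library. TNFRSF6B, a soluble decoy for FASLG, had 5 to 15 counts, and all of its exonic bases also belong to RTEL1-TNFRSF6B. TNFRSF11B (osteoprotegerin), which binds TNFSF11, had no counts.

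Co-stimulatory receptors moved in both directions, with 1 of 5 tested genes higher and 1 lower. TNFRSF14 (HVEM; chromosome 1, 2555639 to 2565382), a receptor for the ligand TNFSF14 and for the inhibitory protein BTLA, was at 3.63 and 2.69 CPM in vehicle. It reached 10.4 and 9.35 CPM with Spautin-1, and the groups did not overlap. The counts were 126, 104, 392 and 324, and the means 3.16 ± 0.662 and 9.9 ± 0.776 CPM. This was a 3.14-fold rise (log2 fold change 1.65 ± 0.22, edgeR adjusted p = 0.000354). The antisense gene TNFRSF14-AS1, which shares 13.3% of its exonic bases, had 24 and 36 counts in vehicle and 110 and 66 with Spautin-1. Because the strand setting is not given, how its reads and those of TNFRSF14 were divided cannot be told.

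TNFRSF8 (CD30; chromosome 1, 12063303 to 12144207), a receptor found on activated lymphocytes and some lymphomas, was at 8.98 and 13.9 CPM in vehicle. With Spautin-1 it was at 5.92 and 4.85 CPM, below both vehicle libraries, which themselves differed by more than the treated pair. The 4 libraries held 312, 536, 222 and 168 counts, with means of 11.4 ± 3.46 and 5.38 ± 0.755 CPM. TNFRSF8 fell 2.12-fold (log2 fold change -1.09 ± 0.23, edgeR adjusted p = 0.00595). The fall was -0.74 without vehicle replicate 2 and -1.37 without vehicle replicate 1, and it was called both times. TNFRSF1B, the second TNF receptor, starts 22783 bases past the end of TNFRSF8 on the same strand. It was higher in both treated libraries, at 4.42 and 3.98 CPM against 2.88 and 3.47 CPM, without passing (log2 fold change 0.40 ± 0.25, edgeR adjusted p = 0.275).

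CD40 (chromosome 20, 46118271 to 46129863) was at 62.6 and 68.3 CPM in vehicle and 76.0 and 72.1 CPM with Spautin-1. The groups did not overlap, but the log2 fold change of 0.18 ± 0.11 did not pass (edgeR adjusted p = 0.3), and its interval ended at 0.43. CD27, the receptor of CD70, overlapped between groups at 3.28 and 3.55 CPM in vehicle and 4 and 2.77 CPM with Spautin-1. CD27 shares 42.5% of its exonic bases with CD27-AS1 on the opposite strand. TNFRSF9 (4-1BB) had 8 counts in 1 vehicle library and none in the other 3, TNFRSF4 (OX40) had at most 6, and TNFRSF18 (GITR) had none.

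The receptors for BAFF and APRIL held the highest and one of the lowest tested members, and neither passed. TNFRSF13B was at 249 and 312 CPM in vehicle and 343 and 286 CPM with Spautin-1, so the groups overlapped. Its log2 fold change was 0.16 ± 0.13 (edgeR adjusted p = 0.393). It was 0.01 without vehicle replicate 1 or without Spautin-1 replicate 1 (edgeR adjusted p = 0.966 and 0.978), 0.3 without Spautin-1 replicate 2 (0.302), and called higher at 0.33 without vehicle replicate 2 (0.0017). The genes ENSG00000290698 and TBC1D27P share 17.3% and 7.7% of its exonic bases on the same strand, so reads may be split among them. The former had 817 and 952 counts in vehicle and 546 and 440 with Spautin-1. TNFRSF13C, the BAFF receptor proper, had 6 and 18 counts in vehicle and 36 and 32 with Spautin-1, higher in both treated libraries (log2 fold change 1.54 ± 0.63, edgeR adjusted p = 0.103). With 1 library left out the value ran from 1.01 without vehicle replicate 1 (edgeR adjusted p = 0.348) to 2.42 without vehicle replicate 2 (0.0394), and it was 1.5 and 1.57 without Spautin-1 replicates 1 and 2 (0.292 and 0.262). TNFRSF17 (BCMA), a receptor of plasma cells, had at most 2 counts.

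None of the 5 other TRAF-binding receptors was tested. TNFRSF11A (RANK) had 14 and 8 counts in vehicle and 6 and 2 with Spautin-1, and LTBR, the lymphotoxin beta receptor, had at most 4. TNFRSF12A (the TWEAK receptor) had 2 counts in 1 library. TNFRSF19 and EDA2R had none. Across all members, 6 were at 0 in every library: FASLG, TNFSF11, TNFRSF18, TNFRSF11B, TNFRSF19 and EDA2R. A count of 0 allows up to 3 counts, or 0.0776 to 0.0866 CPM by library, which covers counting error only. The remaining ligands below the filter were TNFSF8 with 4, 0, 18 and 9 counts, TNFSF14 with 0, 6, 4 and 12, CD40LG with at most 2 and TNFSF18 with at most 2. Of the 54 member values between 1 and 19 counts, 48 were even, and the share over all genes was 73.7% to 76.3% in each library. How mates of a read pair were counted was not given in the sources used here, so a low count may rest on fewer fragments than its number, and the bound on a count of 0 would then be higher.

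Of 24 listed pairs of a ligand and a receptor that bind each other, both partners were tested in 11, and both were called in 0. With 22.0% of all genes and 5 of 25 members called, few such pairs would be called in any list of this size, so nothing is read from that 0. Uncalled partners could stand on the same side, as LTA (1.8 to 3.16 CPM) and TNFRSF1B (3.17 to 4.2 CPM) did. CD70 rose while CD27 stayed between 2.77 and 4 CPM. FAS rose with FASLG at 0 in all 4 libraries, and TNFSF9 rose with TNFRSF9 at no more than 8 counts. TNFRSF14 rose with TNFSF14 at no more than 12 counts, and TNFRSF8 fell while its ligand TNFSF8 had 4 and 0 counts in vehicle and 18 and 9 with Spautin-1. In 6 pairs the ligand alone was tested and in 4 the receptor alone. Proteins at the cell surface were not measured.

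**Figure D3:**
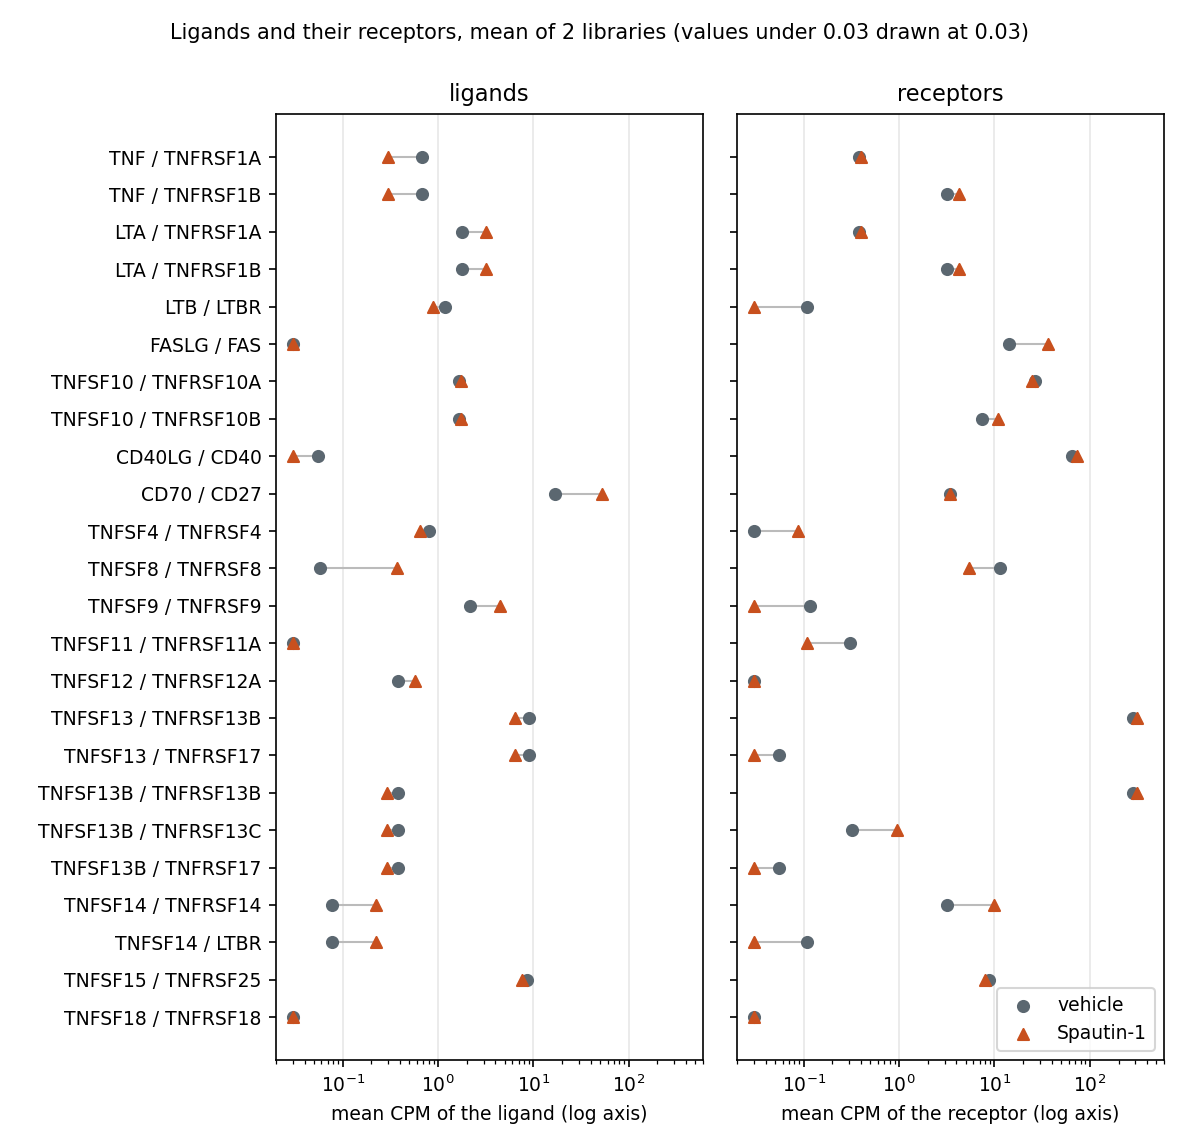
Mean CPM of each ligand (left) and its receptor (right) in vehicle (circles) and Spautin-1 (triangles), n = 2 libraries each, on log axes, with values under 0.03 drawn at 0.03. In the row of CD70 and CD27 the ligand moves from 16.8 to 52.1 CPM and the receptor from 3.41 to 3.38 CPM, and in the row of FASLG and FAS only the receptor is detected.

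The partners of these receptors inside the cell were read from a list of 33 genes, of which 32 were tested. On this list 8 rose and 3 fell, 34.4% of those tested against 22.0% of all genes. The list was chosen with earlier results of these data known, so nothing is read from its larger share. Among adaptors and kinases 2 of 12 rose and 2 fell. TRAF2, the adaptor shared by TNFRSF1B, CD40 and CD27 signalling, was at 44.8 and 53.9 CPM in vehicle and 22.5 and 22.2 CPM with Spautin-1. It fell 2.21-fold (edgeR adjusted p = 0.000159). MAP3K14 (NIK), the kinase of the non-canonical NF-kB pathway, fell 1.37-fold (edgeR adjusted p = 0.049), with adjusted p = 0.075 when vehicle replicate 1 was left out, 0.3 without Spautin-1 replicate 1 and 0.238 without Spautin-1 replicate 2. TRAF5 rose 1.54-fold (edgeR adjusted p = 0.0122; 0.138 and 0.0536 without Spautin-1 replicate 1 and 2), and TAB2, which links TRAF6 to the kinase MAP3K7, rose 1.74-fold.

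Among caspases and their brakes 2 of 8 rose and 1 fell. BIRC3 (cIAP2), a ubiquitin ligase of the TNF receptor complex, went from 82.6 and 78.5 CPM in vehicle to 251 and 266 CPM with Spautin-1, a 3.21-fold rise (edgeR adjusted p = 1.17e-06). Its paralogue BIRC2 (cIAP1) rose 1.73-fold. CASP8, the initiator caspase of death receptors, was at 89.3 and 81.7 CPM in vehicle and 65.1 and 59.4 CPM with Spautin-1. CASP8 fell 1.37-fold (edgeR adjusted p = 0.0152), a call lost without Spautin-1 replicate 1 (0.0757) or replicate 2 (0.26). Of the 7 NF-kB genes 4 rose and none fell, against 11.5% higher and 10.5% lower over all genes. NFKB1, RELB and RELA did not pass, with log2 fold changes of 0.23, 0.09 and -0.33. TNFAIP3 (A20), a brake on NF-kB signalling that is also induced by it, went from 22 and 22.3 CPM in vehicle to 165 CPM in both treated libraries, a 7.44-fold rise (edgeR adjusted p = 4.41e-08). NFKBIA, the inhibitor IκBα, rose 2.21-fold and the subunits NFKB2 and REL rose 1.64-fold and 1.47-fold. REL missed the threshold without Spautin-1 replicate 1 (adjusted p = 0.0505). The 3 sheddases and processing proteases did not pass, nor did RELT and EDARADD, family genes outside the symbol rule.

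**Figure D4:**
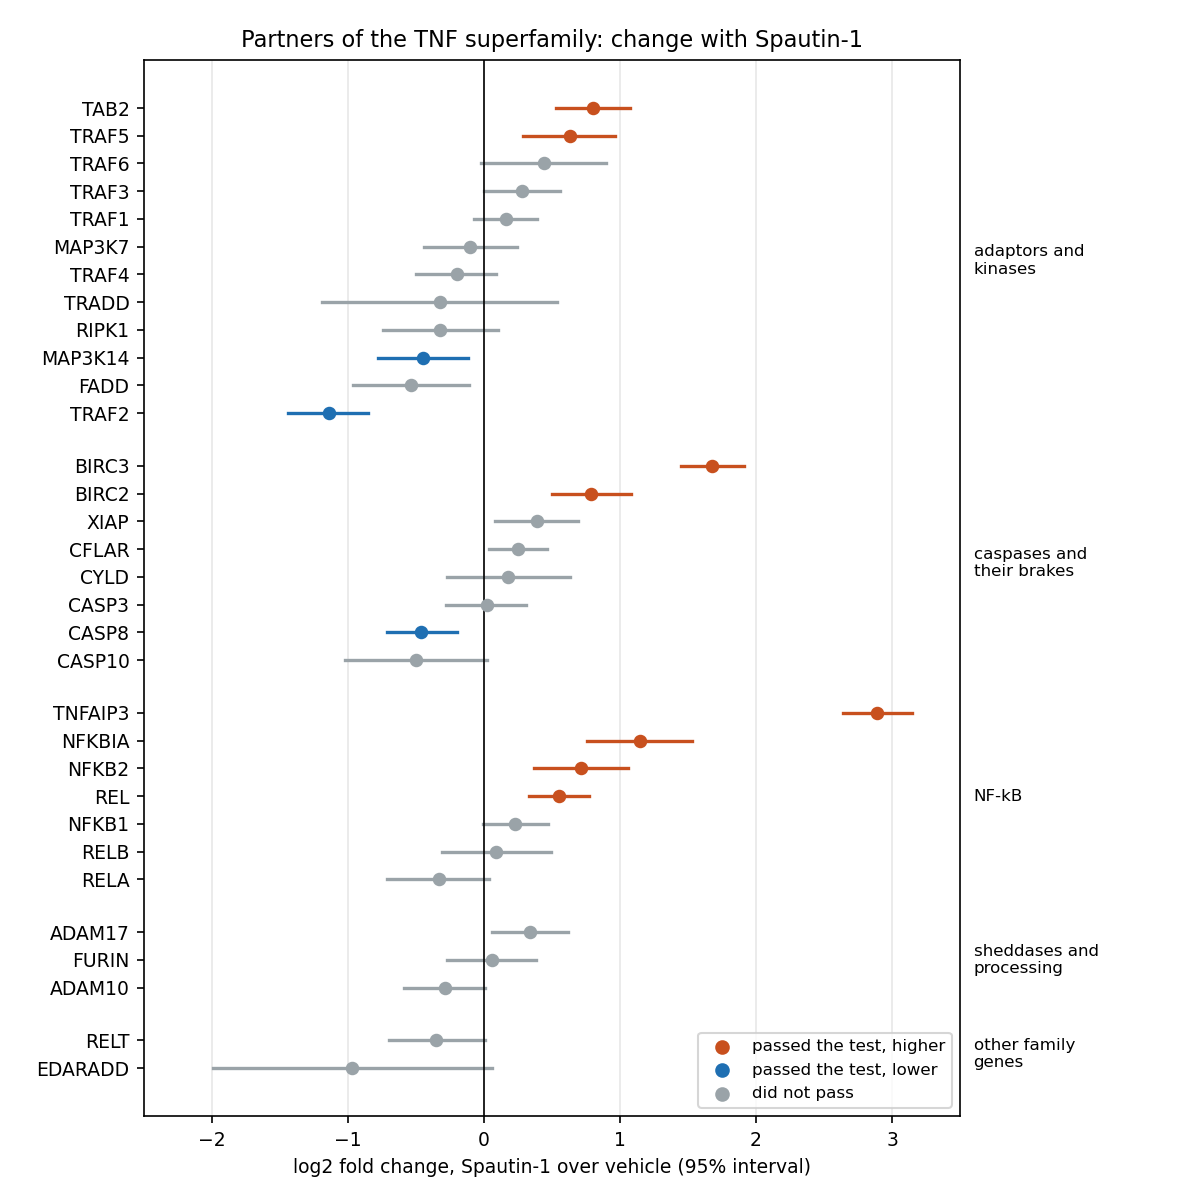
log2 fold change of Spautin-1 over vehicle, with 95% intervals from the edgeR fit, for the 32 tested partner genes by role (orange, higher; blue, lower; grey, did not pass). TNFAIP3 and BIRC3 lie farthest to the right and TRAF2 is the lowest of the genes that passed.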

How the data were processed

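Libraries were of stranded mRNA, per the labels' protocols. Trimmomatic 0.36, featureCounts, Subread 1.5.1, edgeR 3.12.1 and GRCh38 are listed, without their roles, per the submitters' processing notes. Which aligner, annotation release, strand setting and rule for mates and shared reads were used was not given in the sources used here. By their file headers, the authors deposited raw counts per gene with exon coordinates and exonic length. No column was pooled, and the labels give no batch or date.

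Counts were tested with edgeR 4.0.16 in R 4.3.3. Genes passed filterByExpr by group (minimum count 10, minimum total 15), libraries were scaled by TMM, and the groups were compared by the two-sided quasi-likelihood F test with Benjamini-Hochberg adjustment over 18368 genes and a threshold of 0.05. With 2 libraries a group, 2 residual degrees of freedom remain. Intervals are at 95% and use edgeR's total degrees of freedom, which add those borrowed across genes to the residual ones. Each SE was derived from the log2 fold change and its F statistic. The CPM values are TMM-scaled; TPM values use all deposited genes. Gene overlap was taken from the deposited exons.

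Members, roles and lists were chosen with earlier results of these data known. Every tested member is named, with full statistics for those called, and the members of the partner list that were called are named too. Alternatives were RLE or library size scaling, 2 other filters, DESeq2 1.42.0, limma-voom (limma 3.58.1), a replicate block, a threshold of 0.01 and leaving out each library. Halving the counts was added after the data were seen, because low counts were mostly even. The procedure was tested on simulated data.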

Additional observations from a re-analysis of the deposited data

How the results depend on the processing

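The 4 members called higher and the 1 called lower were 4 and 1 under RLE scaling, library size scaling, DESeq2, limma-voom and no low-count filter; counts of higher calls were 5 with a filter of 1 CPM in 2 libraries or halved counts, 3 at a threshold of 0.01 and 3 to 6 when 1 library was left out. Lower calls ran from 1 to 2 in those last fits, the added gene without vehicle replicate 1 being TNFSF13. CD70, FAS, TNFRSF14 and TNFRSF8 were called in every fit run at 0.05. Over all genes, 4045 calls became 1938 at a threshold of 0.01, and from 1847 (without Spautin-1 replicate 2) to 5766 (without vehicle replicate 1) with 1 library left out; a group of 1 library is assumed there to vary like the other group.

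The replicate numbers are not said to mark a shared culture, and same-numbered libraries did not deviate together (correlation -0.00151 across 18368 genes). With the replicate block 6 members were called higher and 1 lower, the additions being TNFRSF10B (edgeR adjusted p = 0.0296) and LTA (0.0456), and 5100 genes in all.

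Direction changed only in members that did not pass. TNFRSF1A was at -0.02 with the replicate block and -0.09 by limma-voom. With 1 library left out, log2 fold changes ran from -0.81 to 0.59 for TNFRSF1A, -0.31 to 0.24 for CD27, -0.38 to 0.09 for TNFRSF25, -0.45 to 0.17 for TNFSF15, -0.80 to 0.10 for LTB, -0.16 to 0.25 for TNFSF10, -0.56 to 0.03 for TNFSF4 and -2.67 to 0.48 for TNFSF13B; the cause was not tested beyond the library left out. Depth limits the members with few reads: the interval of TNFRSF1A, at 8 to 20 counts, ran from -1.56 to 1.67.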

Other observations

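Several members are neighbours in the genome. On chromosome 19, TNFSF9, CD70 and TNFSF14 follow each other with gaps of 47258 and 57149 bases. TNFSF9 and CD70 rose, and TNFSF14 had 0 and 6 counts in vehicle and 4 and 12 with Spautin-1. On chromosome 1, TNFRSF8 fell (log2 fold change -1.09) and TNFRSF1B, 22783 bases away, was at 0.40 without passing. TNFSF12 and TNFSF13 lie 401 bases apart and stood at 0.58 and -0.50, neither past the test. These are values side by side, with no test of position.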
